A study of Homo sapiens with 12 samples.

Results

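Translational efficiency, the amount of a gene's RNA bound to ribosomes relative to its total RNA, was compared between HUES8 human embryonic stem cells (ESC) and neural progenitor cells (NPC) made from them. The genes described are those that passed the filter on low counts in both assays, 11866 of the 59050 gene symbols in the table. Alone, 18631 genes passed in the RNA libraries and 12250 in the ribosome-bound libraries. HUES8 is an established embryonic stem cell line, carried here as wild type in all groups. NPC had gone through 7 days of neural induction in which SB431542 (2.5 uM) blocked the TGF-beta type I receptors that Nodal and activin use and LDN193189 (0.05 uM) blocked BMP receptors, SB431542 being absent for the last 2 days, whereas ESC received neither inhibitor under the labels' protocols. Total RNA depleted of rRNA gave 3 libraries for each state, and total RNA bound to ribosomes gave 3 more, which made 12. A single line was used, and the labels do not say whether libraries of a group came from separate cultures, so the p-values measure the spread between these libraries, which may be technical. Nor do they say whether the RNA and ribosome-bound libraries came from the same cultures, and every efficiency value is a ratio across those assays. The labels used here do not state how ribosomes were isolated or whether a nuclease was applied.

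The protein output of an mRNA depends on its abundance and on how often ribosomes load onto it, and the second step is controlled by initiation factors, by the 5′ end of the mRNA and by kinases such as mTOR. The mRNAs of ribosomal proteins and of several translation factors begin with a C followed by pyrimidines, the terminal oligopyrimidine (TOP) motif, through which mTOR and LARP1 control their translation as a group. Replication-dependent histone mRNAs carry a 3′ stem-loop and no poly(A) tail, and the mRNAs encoded in mitochondria are read by a separate mitochondrial ribosome.

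RNA libraries held 19529738 to 35117370 counts and ribosome-bound libraries 2422756 to 4451196, so that ribosome-bound values set the precision. Levels are given as CPM, counts divided by the TMM-scaled sum over the genes tested, and on that scale a count of 0 allows up to 3 counts, or 0.0820 to 0.153 CPM in RNA and 0.767 to 1.4997 CPM in ribosome-bound libraries (counting error only). RNA_ESC replicate 3 correlated across genes (log2 CPM; genes are no replicates) with the other RNA_ESC replicates at 0.963 and 0.955, against 0.996 between those. RIBO_ESC replicate 2 correlated at 0.918 and 0.931, against 0.969 between the other RIBO_ESC replicates. The stem cell markers POU5F1, NANOG, TDGF1, GDF3, DPPA4, L1TD1, ZFP42 and DNMT3B summed to 6129 to 6647 CPM in RNA_ESC and 636 to 658 CPM in RNA_NPC, and to 2569 to 3755 and 528 to 603 CPM on ribosomes. Markers of neural progenitors rose from 107 to 115 CPM to 590 to 606 CPM in RNA and from 129 to 151 CPM to 529 to 600 CPM on ribosomes. Markers of some other cells differed between the assays. The 7 mesoderm and endoderm markers summed to 11.6 to 12.4 CPM in RNA_ESC, with 3 of 7 at 1 CPM or more, but to 296 to 334 CPM in RIBO_ESC, with 7 of 7 at that level, and to 3.15 to 5.08 CPM in RIBO_NPC. The 6 neuron markers summed to 16.6 to 18.4 CPM in RNA_ESC and 93.5 to 161 CPM in RIBO_ESC, against 8.97 to 10.9 and 33.0 to 37.4 CPM in NPC. Mesenchyme markers went from 246 to 316 CPM to 964 to 1010 CPM in RNA, but from 523 to 857 CPM to 753 to 820 CPM on ribosomes. Neural crest markers were alike in both assays in ESC (38.2 to 66.9 CPM in RNA, 42.5 to 48.2 CPM on ribosomes) and higher in both in NPC (273 to 285 and 333 to 386 CPM). Trophoblast and amnion markers summed to 15.3 to 19.2 CPM and 7.14 to 7.9 CPM in RNA and to 37.0 to 61.8 CPM and 18.1 to 21.7 CPM on ribosomes. In these bulk samples a change in the number of cells of a type and a change in RNA per cell cannot be told apart, and the part of these markers in the results below was not tested.

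The first question was how many genes changed in efficiency. Of 11866 genes, 2716 (22.9%) rose and 2254 (19.0%) fell in NPC, 4970 (41.9%) in all, by the interaction of assay and cell state (edgeR quasi-likelihood test over all 12 libraries with Benjamini-Hochberg adjustment, threshold 0.05). At least 2-fold changes made up 2265 of the rises and 1574 of the falls. In 2448 of the 2716 rises every ratio of a ribosome-bound to an RNA library was higher in NPC than in ESC, and in 1917 of the 2254 falls every ratio was lower (such separation occurred upwards in 22.3% and downwards in 17.9% of all genes tested). In the same genes RNA alone was called in 6246 (52.6%) and ribosome-bound RNA in 7386 (62.2%), each in a fit of its own. RNA rose in 2889 and fell in 3357 of the 11866 genes, and ribosome-bound RNA rose in 3754 and fell in 3632. Efficiency is a relative quantity, because values are scaled within a library, and the median change over all genes was −0.05 on the log2 scale, with quartiles of −0.71 and 0.81.

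The changes in RNA and on ribosomes went together only in part. Across genes the log2 fold changes of NPC over ESC in RNA and in ribosome-bound RNA correlated at Pearson r = 0.725, as a description with no test, and their SDs were 1.26 in RNA and 1.64 on ribosomes. Efficiency changed in the direction of the RNA change in 1253 genes (10.6%), so that the change on ribosomes was the larger. In 841 further genes (7.09%) efficiency changed against the RNA change without an opposite call on ribosomes. A further 2362 genes (19.9%) changed in efficiency without a call in RNA. Another 3638 genes (30.7%) were called in RNA and not in efficiency, and 3258 (27.5%) in neither.

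**Figure D1:**
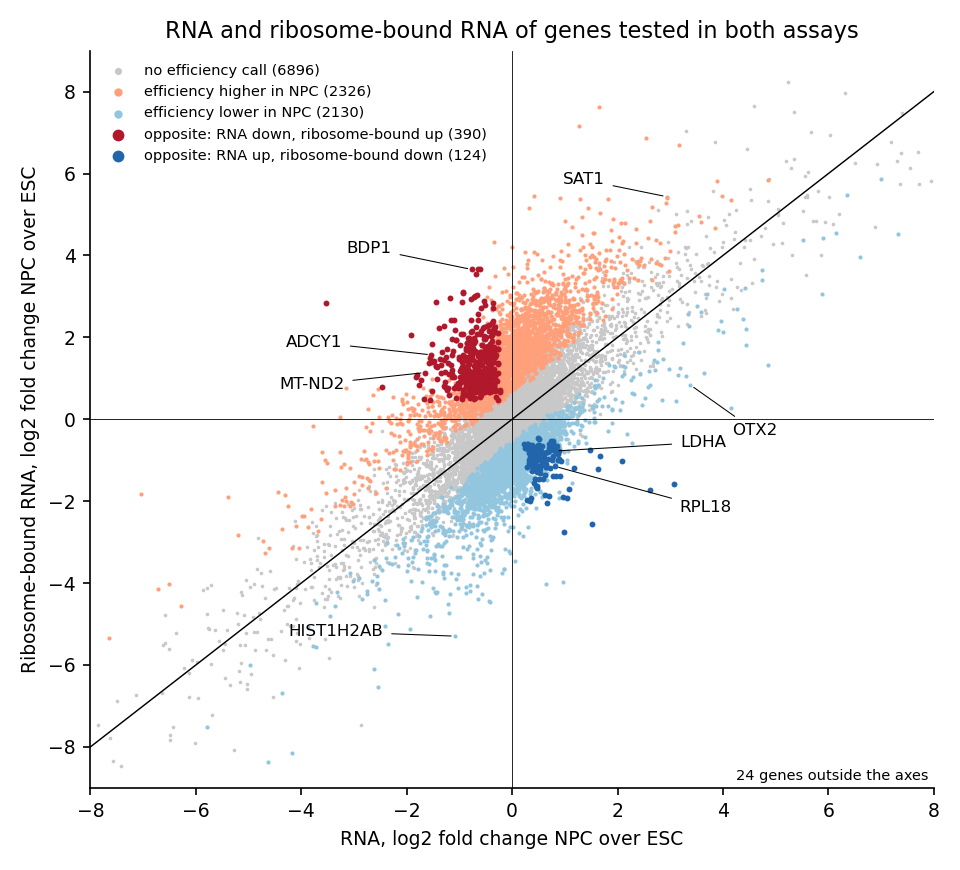
Log2 fold change of NPC over ESC in RNA (x axis) and in ribosome-bound RNA (y axis), 1 point per gene tested, coloured by its efficiency call; the diagonal marks equal change and 24 genes lie outside the axes. The 390 and 124 genes called in opposite directions fill the upper left and lower right quadrants.

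Genes whose RNA and ribosome-bound RNA moved in opposite directions were the remainder. In 390 genes (3.29%) RNA fell and ribosome-bound RNA rose, and in 124 genes (1.05%) RNA rose and ribosome-bound RNA fell. With upper-quartile scaling the counts were 325 and 171. All 514 also had an efficiency call, in the direction of the ribosome-bound change. Efficiency is the difference of both changes in the same libraries, so this direction was given in advance and adds no separate evidence. The median log2 changes were −0.67 in RNA and 1.21 on ribosomes in the first group, and 0.53 and −0.99 in the second. Only 42 and 8 of them moved at least 2-fold in both assays. Without RNA_ESC replicate 3 the counts were 706 and 295, of which 389 and 123 were among those above. Without any 1 other library they ranged from 268 to 451 and from 65 to 163, the lower ends without RNA_NPC replicate 1 and replicate 2.

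The genes with the largest opposite changes included signalling enzymes and cytoskeletal proteins. Genes named here and below were mostly picked by the size of their changes, so lack of overlap between their groups is a description and no test. ADCY1 (chr7:45574140-45723116, GRCh38), an adenylyl cyclase of the nervous system, stood at 171, 165 and 152 CPM in RNA_ESC and 57.5, 60.9 and 54.6 CPM in RNA_NPC. On ribosomes it stood at 8.88, 6.0 and 11.3 CPM in ESC and at 27.6, 23.6 and 27.9 CPM in NPC. Neither pair of groups overlapped, and RNA fell by 1.53 on the log2 scale while ribosome-bound RNA rose by 1.57 (edgeR, adjusted p = 1.56e-05 and 3.69e-04), a rise in efficiency of 3.05 ± 0.27 (SE). RAI14 (chr5:34656328-34832612), an actin-associated protein, had 86.2, 88.9 and 121 CPM in RNA_ESC and 33.4, 33.9 and 35 CPM in RNA_NPC. Its ribosome-bound values were 37.0, 35.5 and 32.0 CPM in ESC against 114, 94.7 and 83.8 CPM in NPC, again without overlap. MYLK, the myosin light chain kinase, fell from 48.8, 45.8 and 48.8 CPM to 18.7, 18.2 and 17.5 CPM in RNA and rose from 33.4, 17.0 and 16.8 CPM to 59.5, 46.6 and 55.5 CPM on ribosomes. RPS6KA2, a ribosomal S6 kinase downstream of ERK, and FOXN3, a forkhead repressor, had efficiency rises of 2.87 ± 0.26 and 2.91 ± 0.30. The others named by the same rule were ZNF721, a zinc finger protein (3.53 ± 0.37), PPP1R14B, a phosphatase inhibitor (2.69 ± 0.50), MLXIP, a glucose-responsive transcription factor (2.7 ± 0.23), PIEZO2, a mechanically gated channel (2.74 ± 0.32), and CHSY1, a chondroitin synthase (2.55 ± 0.27). All 10 remained opposite without any 1 library.

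Among genes that rose in RNA and fell on ribosomes, RPL18 (chr19:48615331-48619178), a protein of the large ribosomal subunit, went from 851, 967 and 870 CPM in RNA_ESC to 1596, 1679 and 1538 CPM in RNA_NPC. Its ribosome-bound values were 582, 811 and 626 CPM in ESC and 280, 296 and 320 CPM in NPC. All NPC values lay above ESC in RNA and below ESC on ribosomes, and efficiency fell by 2.01 ± 0.24 on the log2 scale (adjusted p = 1.58e-05). LDHA (chr11:18394563-18408425), the lactate dehydrogenase subunit that ends glycolysis in lactate, showed 571, 531 and 711 CPM in RNA_ESC, 1051, 1086 and 1106 CPM in RNA_NPC, 384, 314 and 387 CPM in RIBO_ESC and 194, 226 and 206 CPM in RIBO_NPC. DIABLO, a mitochondrial protein that blocks inhibitors of apoptosis, stood at 13.3, 10.3 and 11.5 CPM and 21.0, 20.6 and 21.8 CPM in RNA, and at 34.5, 32.5 and 29.3 CPM and 15.2, 9.75 and 11.5 CPM on ribosomes. Neither LDHA nor DIABLO overlapped between states in either assay, and their efficiency fell by 1.63 ± 0.24 and 2.26 ± 0.28. C15orf40 (−2.34 ± 0.27) and COMMD6 (−2.63 ± 0.53), a COMM domain protein, completed those that remained opposite without any 1 library. LRRC14 (−2.02 ± 0.37) lost the opposite call without any single RNA_NPC library, and FUT11 (−1.77 ± 0.38), a fucosyltransferase, PTS (−1.72 ± 0.35), an enzyme of tetrahydrobiopterin synthesis, CCDC127 (−1.55 ± 0.25) and SLC35G1 (−1.95 ± 0.52) each lost it without at least 1 library.

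**Figure D2:**
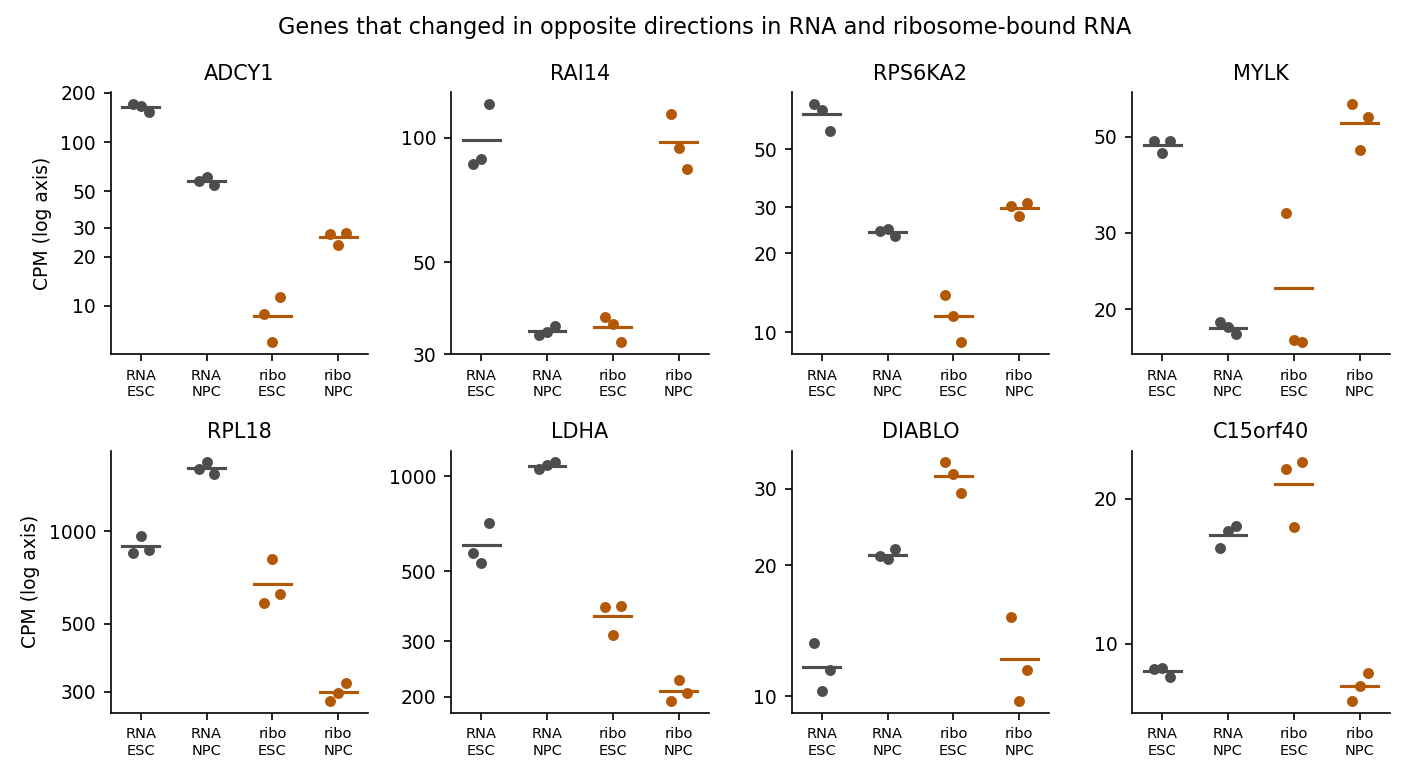
CPM (log axis) of 8 genes in the 12 libraries, points being libraries and lines group means, grey for RNA and brown for ribosome-bound RNA. In the upper row RNA is lower and ribosome-bound RNA higher in NPC, and in the lower row the reverse. ESC and NPC do not overlap in either assay in any of the 8 panels. The genes were picked for large opposite changes in these same libraries, so this lack of overlap is no test.

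The 12 largest efficiency rises were taken among protein-coding genes at 5 CPM or more in each group whose ratios did not overlap between states. BDP1 (chr5:71455651-71578288), a subunit of the RNA polymerase III initiation factor TFIIIB, had 42.9, 44.5 and 71.0 CPM in RNA_ESC, 30.5, 29.8 and 34.2 CPM in RNA_NPC, 11.7, 8.50 and 5.19 CPM in RIBO_ESC and 102, 118 and 94.6 CPM in RIBO_NPC. Every NPC value lay above every ESC value on ribosomes and below in RNA, and efficiency was higher by 4.39 ± 0.36 (log2; adjusted p = 9.97e-07). GOLGA4, a golgin that tethers vesicles at the trans-Golgi, rose by 4.25 ± 0.31. TUB, a neuronal protein of ciliary transport, had 113, 105 and 112 CPM in RNA_ESC and 101, 109 and 108 CPM in RNA_NPC, but 8.17, 4.50 and 9.15 CPM in RIBO_ESC and 86.3, 94.7 and 79.2 CPM in RIBO_NPC. Its RNA groups overlapped and its ribosome-bound groups did not. The kinase HIPK2 rose by 3.68 ± 0.25, the chromosome protein BOD1L1 by 3.66 ± 0.30, the actin-binding protein CCDC88A (girdin) by 3.65 ± 0.32 and the ubiquitin ligase TTC3 by 3.54 ± 0.31. SRSF2, an SR splicing factor, fell in RNA and rose on ribosomes (3.53 ± 0.32 in efficiency). So did CTNND2, delta-catenin of neurons (3.47 ± 0.35), RB1CC1, an autophagy initiation factor (3.28 ± 0.32), and FGD5, an exchange factor for CDC42 (3.20 ± 0.29). BDP1, GOLGA4, HIPK2, BOD1L1 and CCDC88A were opposite in the same direction, while TUB and TTC3 were not opposite.

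Under the same limits (protein-coding, 5 CPM or more in each group, ratios without overlap) the 12 largest falls were all of histone genes. HIST1H2AB (chr6:26033092-26033618) had 87.7, 97.1 and 45.4 CPM in RNA_ESC and 36.3, 40.4 and 35.6 CPM in RNA_NPC. On ribosomes it had 302, 400 and 296 CPM in ESC and 7.62, 5.98 and 11 CPM in NPC. HIST1H4D had 349, 370 and 359 CPM in RNA_ESC and 303, 359 and 323 CPM in RNA_NPC, which overlapped, against 266, 477 and 322 CPM in RIBO_ESC and 31.2, 25.2 and 26.8 CPM in RIBO_NPC, which did not. Efficiency fell by 4.29 ± 0.39 for HIST1H2AB and by 3.55 ± 0.29 for HIST1H4D (adjusted p = 1.70e-06 and 9.97e-07). Of 89 histone symbols, 55 were tested, 54 fell in efficiency, 0 rose, and the pseudogene HIST1H2APS4 did not pass (−1.26, adjusted p = 0.0533). Their median change was −2.91, beside −0.05 over all genes, and the median log2 ratio of ribosome-bound to RNA CPM went from 1.74 in ESC to −1.08 in NPC. In RNA only 20 of the 55 fell and 1 rose. RNA_ESC replicate 3 held less histone RNA than the other RNA_ESC libraries (median −1.09 on the log2 scale) and RIBO_ESC replicate 2 more (0.42), but without any 1 library 54 or 55 members fell, with medians of −3.10 to −2.56. Histone genes share sequence, and the counting of multi-mapped reads was not stated in the labels, so single members are uncertain.

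Next, the machinery of translation was examined. Of 50 genes of the large ribosomal subunit 46 were tested, and 23 fell and 7 rose in efficiency (median −0.89). Of 34 small-subunit genes 31 were tested, and 19 fell and 1 rose (median −1.09). RNA of these genes moved the other way, with 17 rises and 5 falls in the large and 14 rises and 2 falls in the small subunit, and 11 and 6 of them were among the genes whose RNA rose while ribosome-bound RNA fell. RPL9 went from 661, 750 and 748 CPM to 1139, 1232 and 1126 CPM in RNA but from 160, 293 and 149 CPM to 50.1, 36.8 and 56.5 CPM on ribosomes, a fall in efficiency of 2.76 ± 0.34. Further falls were those of RPL15 (−2.53 ± 0.29), RPL29 (−2.33 ± 0.32), RPS2 (−2.99 ± 0.33) and RPS15A (−2.50 ± 0.34). RPL3, which lines the peptidyl transferase centre, went against them, with 1977, 2096 and 1600 CPM in RNA_ESC, 2249, 2349 and 2232 CPM in RNA_NPC, 670, 577 and 619 CPM in RIBO_ESC and 3347, 2921 and 3382 CPM in RIBO_NPC. Its groups did not overlap in either assay, although the RNA change did not pass (0.23, adjusted p = 0.155), and its efficiency rose by 2.10 ± 0.25. RPL7A (1.34 ± 0.25), RPL38 (1.22 ± 0.25) and RPS27 (1.22 ± 0.40) rose as well, the last without a call when RIBO_ESC replicate 1, RIBO_ESC replicate 3 or RIBO_NPC replicate 1 was left out. Reads of these genes may be shared with their many pseudogenes.

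Since the TOP motif sits at the first bases of the mRNA, the starts of ribosomal protein genes that rose and fell were set beside each other. The sequences are from RefSeq (GRCh38.p14), 5′ to 3′ on the gene's strand, with 6 bases before and 16 from the annotated start; capitals mark the C at the start and the unbroken run of pyrimidines that follows. The first 3 rose in efficiency and the last 3 fell.
RPL7A, chr9:133348212-133348233 plus strand: cctttcCTTTCTCTCTCCTCCC
RPL38, chr17:74203672-74203693 plus strand: ctcgttCTTTTTCgtccttttc
RPS27, chr1:153990756-153990777 plus strand: ttcgctCCTTTCCggcggtgac
RPL29, chr3:51995880-51995901 minus strand: ccctttCTCTTCCggttctagg
RPL18, chr19:48619163-48619184 minus strand: cgttctCTCTTTCCggacctgg
RACK1, chr5:181243891-181243912 minus strand: ttctctCTCTCTTTCactgcaa
Genes with such a run were found on either side. A start with C and at least 4 pyrimidines, read on the gene's strand, was present in 41 of the 61 ribosomal protein genes with a promoter in the table (67.2%), and in 4.04% of all 27305 promoters. Among ribosomal protein genes with it 22 fell and 4 rose (median −0.99, 41 genes), and among those without it 11 fell and 4 rose (median −1.05, 20 genes). Over all protein-coding genes with a promoter, 9371 of 11371, the 510 with such a start rose in 17.3% and fell in 25.9% of cases (median −0.17), beside 22.6% and 19.4% of the 8861 without it (median −0.07).

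**Figure D3:**
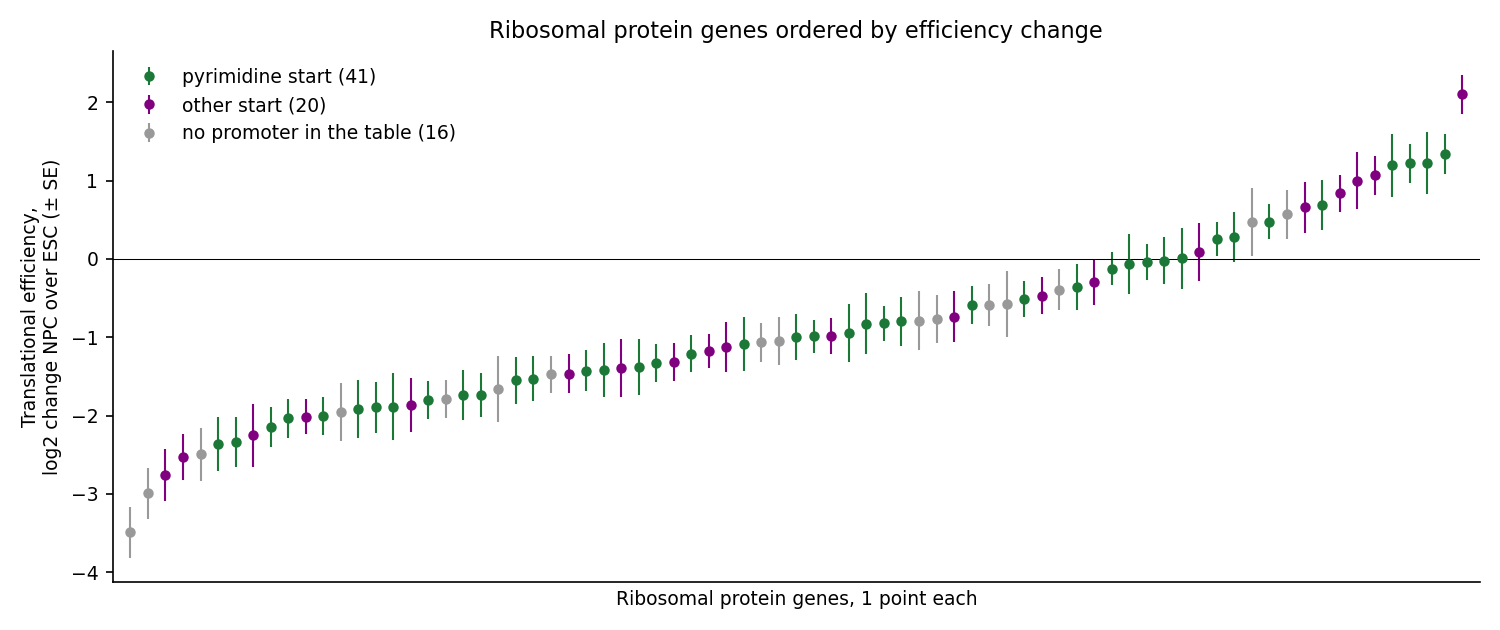
Efficiency change (log2, NPC over ESC, ± SE) of the 77 tested ribosomal protein genes, ordered by value and coloured by the first bases at the RefSeq start. Genes with a pyrimidine start (41) and with another start (20) are spread along the whole range, from falls of over 2 to rises of over 1, and RPL3 is the highest.

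Of 20 other TOP mRNAs tested, 6 rose (30.0%) and 6 fell (30.0%), beside 22.9% and 19.0% of all genes (median −0.00). RACK1 was counted here and in the small subunit list. EIF4B, a helicase cofactor in initiation, rose by 1.66 ± 0.30 with little difference in RNA (1104, 1048 and 1638 CPM in ESC, 1239, 1294 and 1346 CPM in NPC, overlapping), as its ribosome-bound values went from 113, 71.5 and 90.9 CPM to 295, 262 and 334 CPM. The histone chaperone NAP1L1 rose by 2.24 ± 0.30 and the nuclear import receptor IPO7 by 1.26 ± 0.29. RACK1, a scaffold protein of the small subunit, fell from 4691, 4358 and 5135 CPM to 1282, 1674 and 1592 CPM on ribosomes, a change in efficiency of −1.89 ± 0.33, and the elongation factor subunit EEF1B2 and the initiation factor subunit EIF3E fell by 1.5 ± 0.23 and 1.46 ± 0.25.

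Initiation factors also divided, with 11 rises (33.3%) and 11 falls (33.3%) among 33 tested (median 0.10), beside 22.9% and 19.0% of all genes. The rises were led by the scaffolds that join the cap-binding protein to the small ribosomal subunit. EIF4G1 had 1064, 1119 and 948 CPM in RNA_ESC and 625, 610 and 577 CPM in RNA_NPC, against 921, 301 and 697 CPM in RIBO_ESC and 1558, 1632 and 1641 CPM in RIBO_NPC. Its groups did not overlap in either assay (efficiency 2.12 ± 0.39), and 5 other initiation factors were also opposite, EIF1AX, EIF2S2, EIF3A, EIF3J and EIF4E2. EIF4G3 rose by 2.59 ± 0.27. The translational repressor EIF4EBP1 fell by 1.44 ± 0.43, EIF3K by 1.11 ± 0.27 and EIF2A by 1.08 ± 0.24. Among 20 genes of the mTOR complexes and their regulators 8 rose and 3 fell (median 0.27). LARP1, the TOP-binding protein, had 914, 926 and 943 CPM in RNA_ESC and 441, 435 and 431 CPM in RNA_NPC, but 192, 114 and 172 CPM in RIBO_ESC and 512, 500 and 500 CPM in RIBO_NPC. Its groups did not overlap in either assay and its efficiency rose by 2.75 ± 0.26 (adjusted p = 2.11e-06), while that of AKT1 rose by 2.18 ± 0.27 and that of DDIT4, an mTORC1 inhibitor, fell by 1.38 ± 0.32. Cytosolic tRNA synthetases gave 7 falls and 0 rises among 20 (median −0.59), or 13 falls without RIBO_ESC replicate 2, with FARSB at −1.43 ± 0.37 and MARS at −1.06 ± 0.23.

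The 2 genomes that build the respiratory chain differed in direction. Of 78 nuclear genes for mitochondrial ribosomal proteins 74 were tested, and 55 fell and 0 rose in efficiency (median −0.94). Complex I subunits and assembly factors gave 25 falls and 1 rise among 42 (median −0.96), and complexes II to V 27 falls and 2 rises among 36 (median −1.20). NDUFA8 of complex I had 44.6, 47.8 and 47.2 CPM in RNA_ESC and 34.7, 36.9 and 34.3 CPM in RNA_NPC, but 551, 587 and 582 CPM in RIBO_ESC and 73.6, 83.7 and 76.7 CPM in RIBO_NPC. Both assays separated the states, and efficiency fell by 2.48 ± 0.20 (adjusted p = 9.97e-07). COX7A2 of complex IV fell by 2.20 ± 0.37, the ATP synthase subunits ATP5PO and ATP5MG by 2.02 ± 0.23 and 1.97 ± 0.33, and MRPL14 of the mitochondrial ribosome by 2.07 ± 0.32. Against the list, NDUFV2 of complex I rose by 3.07 ± 0.68 from a low ribosome-bound level of 0.505 CPM in ESC, ATP5MF by 1.70 ± 0.32 and ATP5ME by 0.99 ± 0.37, the last with a call that was lost in 14 of 22 alternatives.

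The mRNAs encoded by mitochondrial DNA went the other way. Of 13 tested, 12 rose in efficiency and 0 fell, with a median of 1.97. All 13 fell in RNA (median −1.77), whereas on ribosomes 2 rose and 0 fell (median 0.26). MT-ND2 had 647, 661 and 676 CPM in RNA_ESC and 245, 178 and 223 CPM in RNA_NPC, against 21.7, 26.5 and 19.2 CPM in RIBO_ESC and 55.5, 43.1 and 47.0 CPM in RIBO_NPC. It and MT-ND1 were opposite, with efficiency rises of 2.74 ± 0.26 and 2.56 ± 0.33, and MT-CO1 did not pass (0.82, adjusted p = 0.122). In RIBO_ESC replicate 2 these mRNAs were higher than in the other RIBO_ESC libraries by a median of 0.73 on the log2 scale, and without any 1 library 12 or 13 rose.

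**Figure D4:**
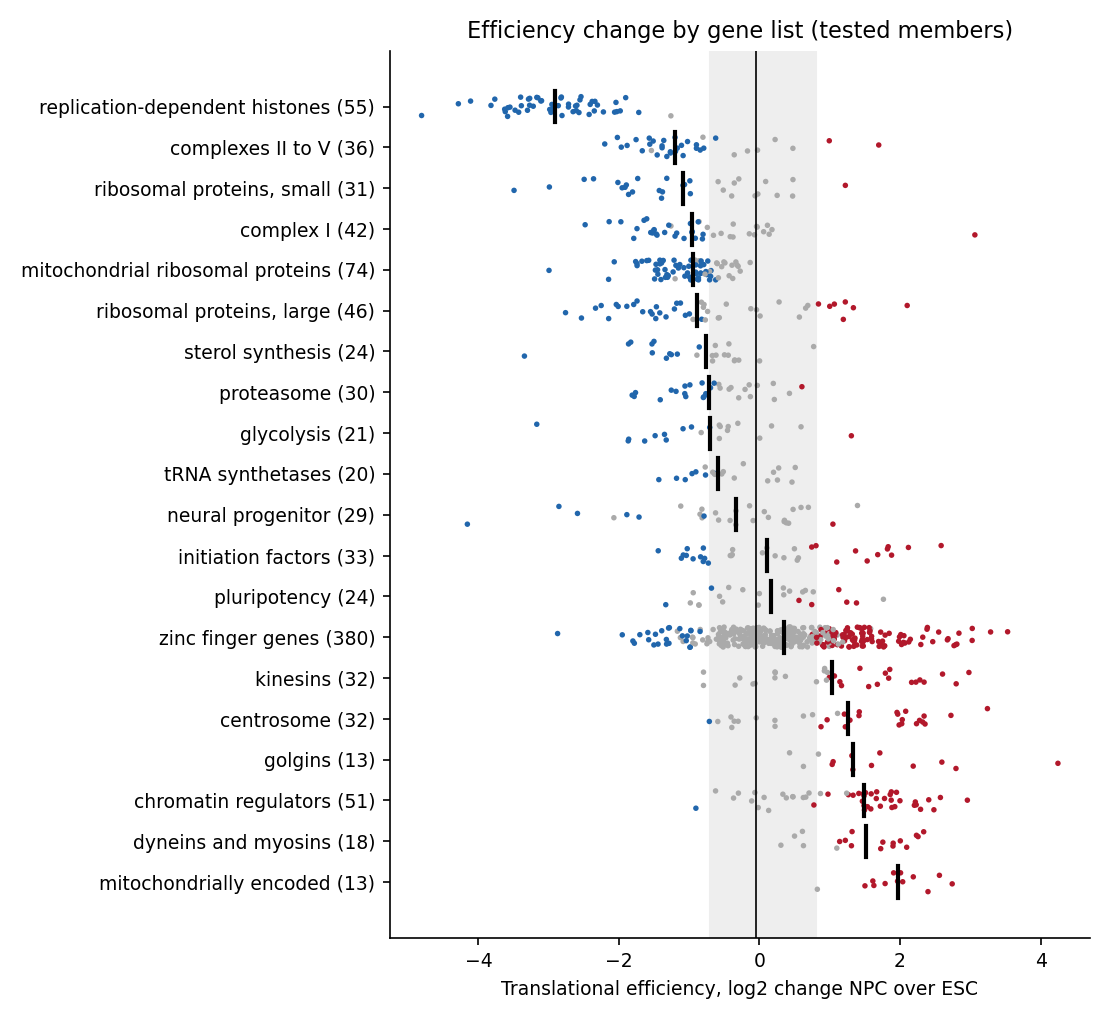
Efficiency change (log2, NPC over ESC) of the tested members of 20 gene lists, number tested in brackets, with red and blue points for members called higher and lower, grey for no call, and a black bar for the list median. The grey band spans the quartiles of all genes (−0.71 to 0.81) and the thin line their median (−0.05); all 55 histones lie below the band and the 12 called mitochondrially encoded mRNAs above it.

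Chromatin regulators gave 33 rises and 1 fall among 51 tested (median 1.49). CHD9, a chromodomain helicase, had 43.3, 43.5 and 63.5 CPM in RNA_ESC and 53.7, 50.8 and 57.0 CPM in RNA_NPC, with overlap, and 14.2, 15.5 and 10.4 CPM in RIBO_ESC and 105, 122 and 103 CPM in RIBO_NPC, without. Its efficiency rose by 2.96 ± 0.28, that of the NuRD helicase CHD3 by 2.58 ± 0.21 and that of BPTF, a subunit of the NURF remodeller, by 2.48 ± 0.33, while ACTL6A, a small actin-related subunit of SWI/SNF, fell by 0.90 ± 0.26. Centrosome and cilium genes gave 20 rises and 1 fall among 32 (median 1.25), led by CEP290 of the ciliary transition zone (3.24 ± 0.41), with STIL, a centriole duplication factor, at −0.71 ± 0.25. Kinesins gave 17 rises and 0 falls among 32 (median 1.03), dyneins and myosins 13 and 0 among 18 (median 1.52), and golgins 10 and 0 among 13 (median 1.33). DYNC1H1, the heavy chain of cytoplasmic dynein, had 1287, 1138 and 1370 CPM in RNA_ESC and 1077, 1108 and 1118 CPM in RNA_NPC, and 290, 129 and 237 CPM in RIBO_ESC and 781, 1006 and 907 CPM in RIBO_NPC (efficiency 2.23 ± 0.33). In RIBO_ESC replicate 2 chromatin regulators lay at −0.63, centrosome genes at −0.70, kinesins at −0.64 and dyneins and myosins at −0.68 from the other RIBO_ESC libraries. Without any 1 library the rises numbered 30 to 35, 19 to 22, 15 to 19 and 13 to 14.

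Zinc finger genes with a ZNF symbol, 380 of 553 tested, gave 100 rises (26.3%) and 25 falls (6.58%), with a median of 0.35. Over all genes 22.9% rose and 19.0% fell, so the share of rises was near that of all genes. Without RNA_ESC replicate 3 the falls were 47, and without RIBO_NPC replicate 3 they were 16. ZNF33A (3.29 ± 0.49) and ZNF704 (3.03 ± 0.50) followed ZNF721 in size. Polycomb genes gave 7 rises (33.3%) and 2 falls (9.52%) among 21 (median 0.58). With 1 library left out the Polycomb falls ranged from 1 to 3. JARID2, a cofactor of PRC2, fell in RNA from 787, 762 and 897 CPM to 183, 203 and 201 CPM but had 335, 153 and 284 CPM and 382, 344 and 349 CPM on ribosomes, a rise in efficiency of 2.53 ± 0.32, and SUZ12, a core PRC2 subunit, rose by 2.23 ± 0.33. Cohesin and condensin gave 4 rises (21.1%) and 1 fall (5.26%) among 19 (median 0.54), the share of rises again near that of all genes. Without RIBO_ESC replicate 1 the rises were 7, and without RIBO_ESC replicate 2 the falls were 4. Factors of m6A gave 5 rises (26.3%) and 2 falls (10.5%) among 19 (median 0.39). Their falls were 0 without RIBO_ESC replicate 1, RIBO_ESC replicate 3 or RIBO_NPC replicate 1. Nucleoporins gave 3 rises (8.33%) and 7 falls (19.4%) among 36 (median −0.45). Their falls were 12 without RNA_ESC replicate 3 and 18 without RIBO_ESC replicate 2. TPR, a coiled-coil protein of the nuclear basket, rose by 2.03 ± 0.42.

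The proteasome gave 17 falls and 1 rise among 30 (median −0.71), with PSMB5, a catalytic subunit, at −1.81 ± 0.29. Cholesterol synthesis gave 11 falls and 0 rises among 24 (median −0.76), on top of 21 falls in RNA, and INSIG1, which holds SREBP in the endoplasmic reticulum, fell by 1.86 ± 0.34 in efficiency. Glycolysis gave 10 falls and 1 rise among 21 (median −0.71), against 9 rises and 3 falls in RNA. PGK1 went from 570, 574 and 493 CPM to 1487, 1464 and 1410 CPM in RNA, but on ribosomes the states overlapped at 788, 358 and 649 CPM and 341, 544 and 432 CPM, and its efficiency fell by 1.86 ± 0.35. SLC16A3, a lactate exporter, fell by 3.17 ± 0.45 and was opposite, like LDHA. Chaperones gave 4 rises (11.8%) and 12 falls (35.3%) among 34 (median −0.21), beside 22.9% and 19.0% of all genes. Their falls were 5 without RNA_NPC replicate 3 and 14 without RIBO_ESC replicate 2. SR and hnRNP splicing proteins gave 4 (11.8%) and 5 (14.7%) among 34 (median −0.23), both below the shares of all genes. Their falls were 0 without RIBO_ESC replicate 1 and 15 without RIBO_ESC replicate 2. Core spliceosome proteins gave 2 (9.09%) and 7 (31.8%) among 22 (median −0.38).

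Genes of stress, iron and polyamine control changed in both directions, beside 22.9% rises and 19.0% falls over all genes. Among 20 genes of the integrated stress response 3 rose and 7 fell (median −0.52). ATF4, its transcription factor, whose mRNA carries upstream open reading frames, had 540, 548 and 549 CPM in RNA_ESC and 328, 332 and 327 CPM in RNA_NPC, but 350, 418 and 359 CPM in RIBO_ESC and 594, 510 and 561 CPM in RIBO_NPC. Its efficiency rose by 1.29 ± 0.21 (adjusted p = 2.17e-04), as did that of PPP1R15A (GADD34), the phosphatase subunit that ends the response (1.85 ± 0.29), while the amino acid carrier SLC7A5 fell by 1.77 ± 0.35. A count per gene does not tell ribosomes on upstream open reading frames from ribosomes on the coding sequence. Of 11 genes with iron-responsive elements or their regulators, 3 rose (27.3%) and 2 fell (18.2%), shares near those of all genes (median 0.39). FTH1, ferritin heavy chain, rose by 1.16 ± 0.38, a call lost without any of 6 single libraries, and TFRC, the transferrin receptor, fell by 1.09 ± 0.31. SAT1, the enzyme that breaks down polyamines, had 27.3, 27.8 and 27.5 CPM in RNA_ESC and 216, 217 and 216 CPM in RNA_NPC, and on ribosomes 78.5, 65.5 and 44.9 CPM in ESC and 2995, 2456 and 2590 CPM in NPC. RNA and efficiency both rose, the latter by 2.44 ± 0.27. The list of 9 polyamine genes had 1 rise (11.1%) and 1 fall (11.1%), both below the shares of all genes (median −0.36).

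Fate genes were then examined. RNA fell in 20 and ribosome-bound RNA in 19 of the 24 genes tested from the pluripotency list. Efficiency rose in 5 (20.8%) and fell in 2 (8.33%), beside 22.9% and 19.0% of all genes, with a median of 0.17. With 1 library left out the rises ranged from 2 (without any 1 of RNA_ESC replicates 1 and 2, RNA_NPC replicates 1 and 3 and RIBO_NPC replicates 2 and 3) to 7 (RIBO_ESC replicate 2) and the falls from 1 to 5 (RNA_ESC replicate 3). POU5F1 had 959, 1163 and 562 CPM in RNA_ESC and 22.1, 21.8 and 19.4 CPM in RNA_NPC, and 73.5, 99.5 and 86.1 CPM in RIBO_ESC and 1.09, 1.26 and 0.767 CPM in RIBO_NPC, which is near the limit of 3 counts. Its efficiency change did not pass (−0.98 ± 0.52, adjusted p = 0.136), nor did that of NANOG (0.43 ± 1.47, adjusted p = 0.880), which had 1 ribosome-bound count in NPC. DNMT3B, the de novo DNA methyltransferase, rose in efficiency by 1.13 ± 0.38 while falling in both assays, without a call in 5 of the fits that left out a library. LIN28A, an RNA-binding protein of stem and progenitor cells, did not pass (−0.57 ± 0.27, adjusted p = 0.0998), but did without RNA_ESC replicate 3 or RIBO_ESC replicate 2. SOX2 was level, with 94.4, 114 and 99.9 CPM and 107, 120 and 111 CPM in RNA and 194, 207 and 200 CPM and 228, 218 and 211 CPM on ribosomes (efficiency −0.00 ± 0.20, adjusted p = 0.996).

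RNA rose in 24 and ribosome-bound RNA in 23 of the 29 genes tested from the neural progenitor list. Efficiency rose in 1 (3.45%) and fell in 6 (20.7%, beside 19.0% of all genes), with a median of −0.34. Without RNA_ESC replicate 3 the rises were 3, and without RIBO_ESC replicate 2 the falls were 9. With at least 5 CPM required in each group the median was 0.0046, so the lower median depended on genes with low counts. OTX2, the forebrain homeobox factor, went from 8.86, 7.30 and 8.80 CPM to 89.9, 84.9 and 90.1 CPM in RNA, but from 60.04, 53.5 and 57.1 CPM to 90.7, 98.8 and 112 CPM on ribosomes. Both assays separated the states, and efficiency fell by 2.59 ± 0.22 (adjusted p = 1.07e-06), since the ribosome-bound rise was the smaller. PAX6 rose from 0.718, 0.749 and 0.559 CPM to 40.4, 40.8 and 42.8 CPM in RNA and from 1.78, 3.0 and 5.8 CPM to 28.3, 27.7 and 35 CPM on ribosomes, an efficiency change of −2.85 ± 0.44 (adjusted p = 1.23e-04). The ESC values of PAX6 were low in both assays, 3 counts being 0.915 to 1.4997 CPM in RIBO_ESC, so its ratio in ESC rests on few counts. SOX1 fell by 1.89 ± 0.36, SOX11, a factor of progenitors and young neurons, rose by 1.05 ± 0.26, and NES (0.07 ± 0.45, adjusted p = 0.915) and LHX2 (1.39 ± 1.58, adjusted p = 0.496) did not pass. Early neuron markers gave 4 rises and 0 falls among 9 of 17 tested (median 0.45), with NEFL, a neurofilament protein, at 98.9, 101 and 112 CPM and 17.5, 18.7 and 16.4 CPM in RNA and 144, 161 and 142 CPM and 85.6, 73.3 and 87.9 CPM on ribosomes (1.72 ± 0.21). As given above, neuron markers differed between RNA_ESC and RIBO_ESC as well.

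Mesoderm and endoderm genes gave 5 falls and 0 rises among 11 of 17 tested (median −1.69). CER1, a secreted Nodal and BMP antagonist of endoderm, stood at 1.29, 1.98 and 2.24 CPM in RNA_ESC and 0.109, 0.0820 and 0.0292 CPM in RNA_NPC, against 512, 776 and 541 CPM in RIBO_ESC and 2.54, 2.83 and 0.256 CPM in RIBO_NPC. MIXL1, a factor of the primitive streak, stood at 6.75, 5.77 and 4.73 CPM in RNA_ESC and 167, 260 and 166 CPM in RIBO_ESC. GATA6, an endoderm factor, had 0.335, 0.449 and 0.203 CPM in RNA_ESC and 12.1, 8.0 and 10.7 CPM in RIBO_ESC, and its efficiency fell by 5.07 ± 0.61. All 3 RIBO_ESC libraries were high for these 3 genes, and RNA_ESC libraries were low in all 3. DKK1, a WNT antagonist, showed the same, with 0.431, 0.524 and 0.559 CPM in RNA_ESC and 18.1, 37.5 and 19.5 CPM in RIBO_ESC (−4.13 ± 0.58). In NPC the 7 mesoderm and endoderm markers, MIXL1 and GATA6 among them, summed to 0.905 to 1.28 CPM in RNA and 3.15 to 5.08 CPM on ribosomes. MIXL1 had 10 counts in RNA_NPC and 10 in RIBO_NPC. Falls of such genes thus rest on few NPC counts. With at least 5 CPM required in each group, 0 members of the mesoderm and endoderm list remained.

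WNT genes gave 7 rises and 8 falls among 25 (median −0.25), Notch genes 3 and 3 among 21 (median −0.06), neural crest and placode genes 3 and 2 among 17 (median 0.13), and trophoblast and amnion genes 1 and 1 among 7 (median −0.08). Mesenchymal and matrix genes gave 2 and 2 among 20 (median −0.04), epithelial junction genes 3 and 2 among 19 (median −0.40), and cell cycle genes 4 and 6 among 32 (median −0.23). Over all genes 22.9% rose and 19.0% fell. WNT genes lay above both shares. The other lists named here lay below both, cell cycle falls (18.8%) only just. With 1 library left out, cell cycle falls ranged from 4 to 11 (RIBO_ESC replicate 2) and rises from 4 to 7 (RIBO_ESC replicate 1). Epithelial falls then ranged from 0 to 4, and mesenchymal rises and falls from 1 to 4 each. WNT falls ranged from 6 to 9, Notch rises from 3 to 5 and Notch falls from 2 to 4. Neural crest rises ranged from 3 to 4 and falls from 1 to 3, and trophoblast rises and falls from 1 to 2 each. The neural crest median reached 0.93 without RIBO_ESC replicate 1 and 0.91 with at least 5 CPM required in each group. Within the cell cycle list, MKI67, the coat protein of mitotic chromosomes, had 158, 178 and 228 CPM and 150, 152 and 164 CPM in RNA and 138, 54.5 and 106 CPM and 433, 423 and 473 CPM on ribosomes. It rose in efficiency by 2.42 ± 0.35, while the kinases CDK4 and CDK1 fell by 1.84 ± 0.29 and 1.16 ± 0.27.

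Gene span, a property the comparison did not use, went with the efficiency change. Among 11371 protein-coding genes split into 5 equal groups by the RefSeq distance from start to end, 8.53%, 13.9%, 19.7%, 27.3% and 42.3% rose from the shortest to the longest, and 34.3%, 24.1%, 18.9%, 12.6% and 6.90% fell. The medians were −0.61, −0.28, −0.10, 0.10 and 0.64. Opposite genes followed, since 22, 30, 56, 92 and 166 of those with lower RNA and higher ribosome-bound RNA came from these groups, and 52, 30, 16, 12 and 7 of those with the reverse. The median RNA change stayed between −0.08 and −0.01 in every group. The shortest group spanned 387 to 10945 bases and the longest 102775 to 2304198 bases. Promoter GC content went with it less evenly, the group of highest GC having 32.2% rises and 13.1% falls and the others 17.1% to 22.8% and 19.1% to 23.2%. Span includes introns and is not the length of the mRNA.

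**Figure D5:**
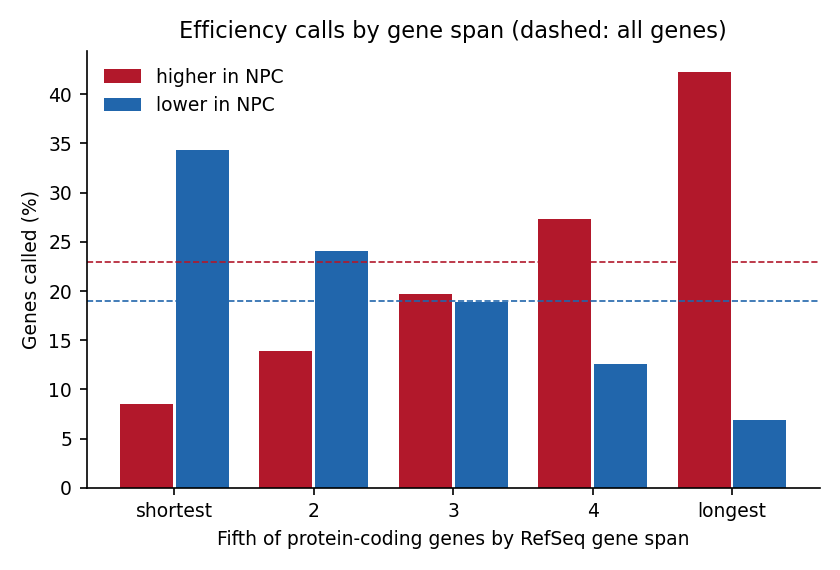
Share of protein-coding genes called for efficiency (%, bars from 0) in 5 equal groups by RefSeq gene span, red for higher and blue for lower in NPC; dashed lines give the shares over all genes, 22.9% and 19.0%. Rises go from 8.53% to 42.3% and falls from 34.3% to 6.90% between the shortest and the longest group.

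Several classes of genes that are not protein-coding rose more often than the 22.9% of all genes (19.0% fell). For these and the miRNA genes below, efficiency is only ribosome-bound relative to total RNA and is no measure of translation. Small nucleolar RNAs, many of which guide the modification of rRNA, gave 25 rises (71.4%) and 0 falls among 35 (median 1.74). Spliceosomal snRNAs gave 6 (54.5%) and 0 among 11, and transcribed pseudogenes 36 (50.7%) and 3 (4.23%) among 71 (median 1.32). Long noncoding RNAs gave 39 (24.1%) and 17 (10.5%) among 162 (median 0.19), their rises being near the share of all genes. SNORA73B, a small nucleolar RNA inside the SNHG3 locus, had 60.5, 59.2 and 48.0 CPM in RNA_ESC and 44.1, 46.8 and 44.1 CPM in RNA_NPC. On ribosomes it had 36.2, 7.00 and 25.6 CPM in ESC and 331, 586 and 482 CPM in NPC (4.62 ± 0.47 in efficiency). SNHG14, a host of small nucleolar RNAs, rose by 2.49 ± 0.26, and JAKMIP2-AS1 (−1.80 ± 0.25), SNHG29 (−1.68 ± 0.31), C19orf48 (−1.59 ± 0.38) and TSPY26P (−1.45 ± 0.35) fell. The protein-coding share of counts was 85.7% to 89.3% in RIBO_ESC and 81.0% to 83.8% in RIBO_NPC, beside 94.7% to 95.2% in every RNA library, and the part of this difference in the rises was not tested.

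Of 12 miRNA genes tested 7 rose and 1 fell, and 3 of the 7 were of the stem cell cluster miR-302, described here after their values were seen. The mature 3′ arms are from RefSeq (GRCh38.p14), 5′ to 3′, with the seed (bases 2 to 8) in capitals, and all 3 share it.
hsa-miR-302a-3p, chr4:112648186-112648208 minus strand: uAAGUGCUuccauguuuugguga
hsa-miR-302b-3p, chr4:112648489-112648511 minus strand: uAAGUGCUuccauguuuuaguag
hsa-miR-302c-3p, chr4:112648366-112648388 minus strand: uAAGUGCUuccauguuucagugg
MIR302B had 40.8, 34.7 and 34.4 CPM in RNA_ESC and 3.13, 3.36 and 3.21 CPM in RNA_NPC, but 72.5, 148 and 101 CPM in RIBO_ESC and 931, 641 and 680 CPM in RIBO_NPC. It was opposite, with an RNA change of −3.53 and a ribosome-bound change of 2.83 (adjusted p = 1.25e-06 and 8.38e-06). MIR302A had 2.59, 3.11 and 2.49 CPM in RNA_ESC, 1.24, 1.64 and 1.08 CPM in RNA_NPC, 5032, 9595 and 4821 CPM in RIBO_ESC and 12419.5, 6755.5 and 12289.5 CPM in RIBO_NPC. Its ribosome-bound groups overlapped and did not differ by the test (adjusted p = 0.101), nor did those of MIR302C (adjusted p = 0.761), and both rose in efficiency, by 1.74 ± 0.45 and 1.97 ± 0.43. A count per gene does not tell a mature miRNA from its precursor.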

How the data were processed

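The authors deposited raw counts per gene for 12 libraries in 4 groups of 3. STAR 2.7.1a, Bowtie 1.2, featureCounts 1.6.4 and cutadapt 1.18 are listed in the submitters' processing notes, with hg38 and GRCh38 as builds. Strand and multi-match settings of the counting were not found in the labels or header. Genes passing filterByExpr in both assays were tested with edgeR 4.0.16 in R 4.3.3 (TMM scaling and the quasi-likelihood test, with p-values adjusted after Benjamini and Hochberg and a threshold of 0.05), for efficiency as (RIBO_NPC − RIBO_ESC) − (RNA_NPC − RNA_ESC) in a single fit with 1 mean per group, and for NPC over ESC in each assay alone. A gene was opposite where both assays passed with opposite signs. CPM values use the sums over the genes tested, scaled by TMM. The test was checked on simulated counts.

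The members and the 41 gene lists were chosen with earlier results of these data known. Genes named were the 12 largest rises and 12 largest falls among protein-coding genes with at least 5 CPM in each group and separated ratios, the 10 opposite genes of each direction with the largest smaller change, the 3 largest rises and falls of each list (of which some are printed, and some are not reported here), 10 stem cell and neural genes, and the 4 largest noncoding rises and falls. MIXL1, MT-CO1, HIST1H2APS4, the opposite initiation factors and the miR-302 genes were named after their values were seen. Gene types, spans and sequences came from RefSeq tables of GRCh38.p14, where 36273 symbols matched by symbol and 1014 by synonym and 21726 did not match. Protein lengths were not used here and gene span took their place, chosen, like the groups by promoter GC, after seeing the data. Alternatives were other scalings, filters, thinned RNA counts, DESeq2 1.42.0, limma 3.58.1 (voom), replicate blocks and each library left out.

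Pairing was checked by correlating the deviations of same-numbered libraries from their group means. It was 0.335, 0.225 and 0.545 for RNA_ESC with RNA_NPC, above the limit of 0.1 used for pairing, but differently numbered RNA libraries reached 0.350 (RNA_ESC 2 with RNA_NPC 1) and 0.219 (RNA_ESC 1 with RNA_NPC 2), and replicate 3 alone stood apart from the other numbers. It was −0.125, −0.206 and −0.003 for RIBO_ESC with RIBO_NPC, below that limit, and −0.114 to 0.128 between assays within a state. Only RNA_ESC 2 with RIBO_ESC 2 (0.128) passed the limit between assays. The differently numbered RNA_ESC 1 with RIBO_ESC 2 reached 0.121, so numbers were not taken to pair libraries there.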

Additional observations from a re-analysis of the deposited data

How the results depend on the processing

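Depth limited the ribosome-bound values, and genes near 3 counts there have wide errors. The number of efficiency calls stayed within 1.5 times of 4970 in every alternative but limma voom with sample weights, which called 7524 genes, 3797 of them lower. Leaving out 1 library gave 4101 to 5904 calls, 2355 to 3062 higher and 1735 to 2842 lower. With the replicate number as a block the calls were 2635 higher and 2154 lower, and with cell state and replicate number together as a block 2593 and 2173. The replicate block in each assay gave 362 and 114 opposite genes, 333 and 83 of them shared with the counts reported. A 2-fold minimum left 42 and 8, and leaving out 1 library gave 268 to 706 and 65 to 295. Other scalings moved the median of all genes by at most 0.07 on the log2 scale, and dropping the filter moved it by 0.158. None of the 4970 genes called was called with the other sign in any of these alternatives, and genes without a call were not examined for this. FEZF2 changed sign without RIBO_ESC replicate 3 (1.78, no call; −4.86 at the lowest without 1 library) and PAX3 under limma voom with sample weights (0.0933, no call). The cause was not tested. Under the filter of 5 CPM the mesoderm and endoderm list had no member left and gave no value.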
